A study of Mus musculus with 6 samples.

Results

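The cytosolic translation initiation and elongation factors of the mouse heart were taken from the deposited gene table by name, as every gene whose symbol begins with Eif or Eef followed by a digit. Of 75 matching rows, 7 with pseudogene symbols and 2 genes for the gamma subunit of eIF2 were left out, which gave 66 of 52550 genes. Averaged over the 6 libraries, 59 of the 66 reached 1 FPKM, and these were tested. FPKM are corrected for transcript length and library total, which lets levels be set side by side between genes. Between libraries they are not directly comparable here, because the size factors given below differed between the groups. The other 7 lay under this minimum. One of them, Eif2c5, matches the rule by its letters only and is a non-coding gene in GENCODE M21.

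The hearts came from C57BL/6J mice aged 12 months, and the left ventricle was the tissue sequenced. One group of 3 libraries is labelled wild-type (WT), and the other 3 carry the label PKI, for overexpression of PGC1alpha, the coactivator of mitochondrial genes encoded by Ppargc1a. How that overexpression was achieved, and in which cells, is not given in the sources used here. No label says whether the 3 libraries of a group came from separate animals, so every p-value below measures only the spread between these libraries, which may be technical.

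Ppargc1a was listed at 14.2, 12.8 and 12.4 FPKM in WT and at 11.6, 11.8 and 11.4 FPKM in PKI, which is lower in every library labelled PKI (log2 change −0.16, SE 0.07, limma adjusted p = 0.0967). The targeted gene thus did not show the labelled overexpression, and the text speaks of the libraries labelled PKI, whose directions rest on that label. Cardiomyocyte markers summed to between 12018 and 12874 FPKM in WT and to between 12368 and 13268 FPKM in PKI, with none of the 12 at 0. Of these 12 markers 3 were called higher and 4 lower as deposited (median log2 change −0.01), and none higher and 8 lower after scaling (median −0.31). Between 57.3% and 58.8% of all FPKM came from the mitochondrial genome in WT, against 55.3% to 55.6% in PKI. Most tested genes were a little higher in PKI: the median log2 change was 0.21 over the 9907 tested genes and −0.02 after scaling. Here and below, "after scaling" means after division of each library by its median-of-ratios size factor, 0.898 to 0.922 in WT and 1.10 to 1.13 in PKI.

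Translation begins when eIF2 brings the initiator tRNA to the small ribosomal subunit, on which eIF1, eIF1A, eIF3 and eIF5 gather. The cap-binding complex eIF4F, made of eIF4E, eIF4G and the helicase eIF4A, loads that subunit onto the mRNA, and the 4E-binding proteins hold eIF4E away from eIF4G. After the start codon is found, eEF1A delivers each aminoacyl-tRNA and eEF2 moves the ribosome along. Heart and skeletal muscle are known for a change of eEF1A isoform after birth, from the broadly expressed eEF1A1 to the muscle and neuron form eEF1A2.

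Of the 59 tested factors, 27 (45.8%) rose in the libraries labelled PKI and 1, Eif4ebp2, fell (limma, adjusted p under 0.05). Among all tested genes 36.4% were called higher and 2.96% lower. The median log2 change of the factors was 0.23, beside 0.21 for all tested genes. A positive change was found in 52 of the 59 factors, beside 8288 of the 9907 tested genes. After scaling, 5 factors were called higher (Eef1a1, Eif1a, Eif3b, Eif3h and Eif4a1) and 5 lower (Eef1a2, Eef2k, Eif1, Eif4ebp2 and Eif4h), beside 7.82% and 9.18% of all tested genes. The factors' median was then −0.03. The 5 called higher after scaling were also called higher without it, whereas of the 5 called lower only Eif4ebp2 was. All factors summed to 1560 ± 34.4 FPKM (SD, n = 3) in WT and 1879 ± 75.9 FPKM (SD, n = 3) in PKI, and after scaling to 1717 ± 20.1 and 1681 ± 48.6 FPKM (SD, n = 3), where the groups overlapped. The direction of 27 of the 59 turned with scaling, 4 of them among the 27 that rose (Eef1g, Eef2, Eif1ad and Eif2b4).

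**Figure D1:**
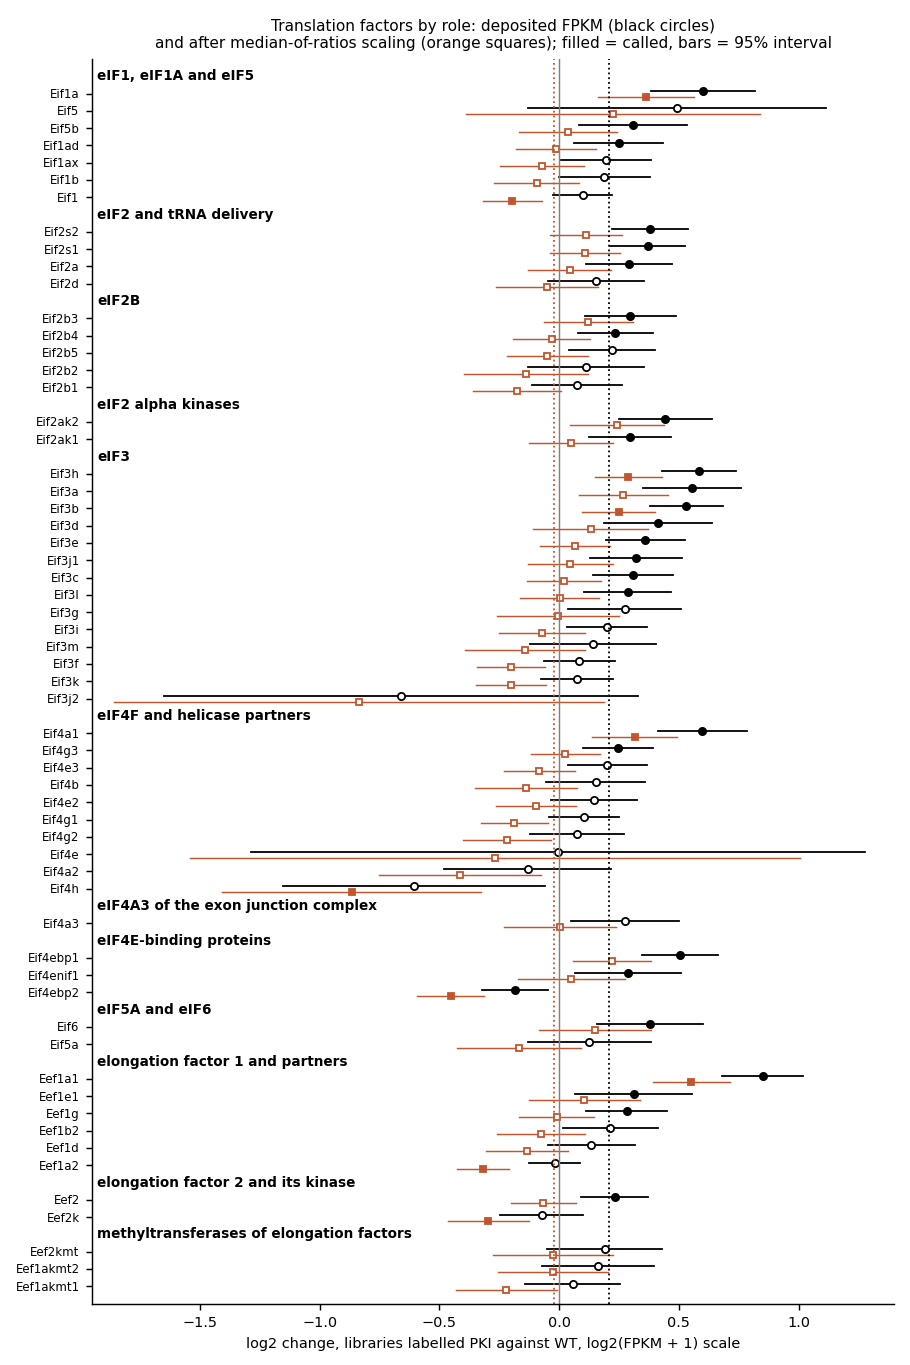
Log2 change of each tested factor by role, libraries labelled PKI minus WT on the log2(FPKM + 1) scale, from FPKM as deposited (black circles) and after scaling (orange squares), with filled symbols for called factors, bars for limma 95% confidence intervals and dotted lines at the medians of all tested genes (0.21 and −0.02). Most black circles lie right of 0, the orange squares spread around 0, Eef1a1 lies farthest right in both, and Eif4e, Eif3j2, Eif5 and Eif4h have the longest bars.

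Elongation factor 1A gave the largest change of the 59 in the fit of values as deposited. Its isoforms Eef1a1 and Eef1a2 carry the same activity, GTP-dependent delivery of aminoacyl-tRNA. Their coding sequences share 80.1% of 1386 aligned bases and hold no identical run longer than 23 bases. The first 90 coding bases of each are shown to make that visible, with the 15 bases that differ in capitals, from the GENCODE M21 transcripts on GRCm38 (Eef1a1 at chr9:78480565-78480654 and Eef1a2 at chr2:181155317-181155406, both on the minus strand).
Eef1a1: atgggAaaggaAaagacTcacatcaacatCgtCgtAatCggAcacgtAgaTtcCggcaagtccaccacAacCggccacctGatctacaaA
Eef1a2: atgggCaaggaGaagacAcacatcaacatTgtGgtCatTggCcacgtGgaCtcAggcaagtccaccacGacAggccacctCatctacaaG

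Eef1a1 (ENSMUSG00000037742, GRCm38 chr9:78478449-78489151) was at 140, 130 and 143 FPKM in WT and at 238, 272 and 238 FPKM in PKI. The groups did not overlap, and Eef1a1 rose 1.81-fold (138 ± 6.62 to 249 ± 19.5 FPKM, SD, n = 3; log2 change 0.85, SE 0.07, limma adjusted p = 0.000707). After scaling the log2 change was 0.55 (limma adjusted p = 0.00273). Eef1a2 (ENSMUSG00000016349, chr2:181147653-181157014), the factor with the highest level of all 59, was at 314, 318 and 311 FPKM in WT and at 305, 319 and 307 FPKM in PKI. Its groups overlapped, and the log2 change was −0.02 (95% confidence interval −0.126 to 0.0890, limma adjusted p = 0.758). After scaling the same values gave −0.32 and a call (limma adjusted p = 0.00527), while quantile normalisation gave −0.14 without a call (limma adjusted p = 0.164).

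The ratio of Eef1a1 to Eef1a2 within a library does not depend on such a scaling factor. It was 0.446, 0.410 and 0.459 in WT and 0.783, 0.852 and 0.775 in PKI, so that Eef1a2 remained the more abundant isoform in all 6 libraries. The mean ratio was 1.83-fold higher in PKI (0.439 ± 0.0255 and 0.803 ± 0.0424, SD, n = 3; difference of log2 ratios 0.87). By an exact permutation test, two-sided, this difference had p = 0.1, and no smaller p can be reached with 3 libraries against 3. Eef1a1 made up 30.5% ± 1.24 (SD, n = 3) of the pair in WT and 44.5% ± 1.29 (SD, n = 3) in PKI. The 2 isoforms summed to 452 ± 3.60 FPKM in WT and 560 ± 27.2 FPKM in PKI as deposited (SD, n = 3), without overlap. After scaling the sums were 493, 495 and 505 FPKM in WT and 486, 522 and 495 FPKM in PKI, which overlapped, and the sum was not tested. Processed copies of Eef1a1 elsewhere in the genome, such as Gm13456, held 7.70% of the FPKM of the gene and its copies together, and adding them gave the same log2 change of 0.85.

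**Figure D2:**
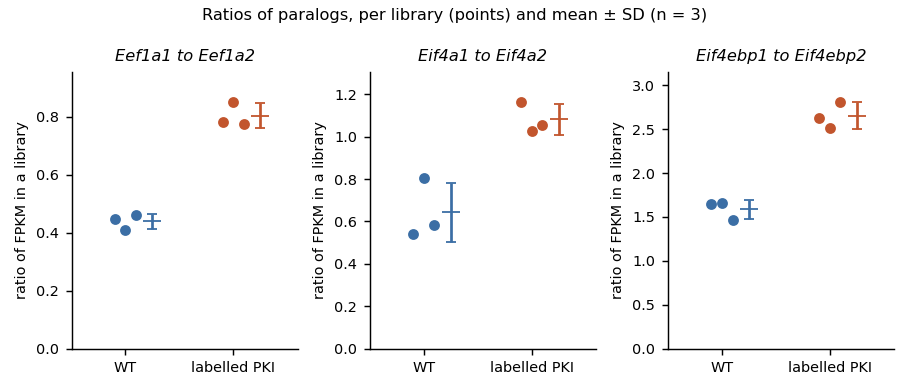
Ratio of FPKM of paired paralogs in each library (points), with the group mean and SD beside them (n = 3) and each axis starting at 0. In the 3 pairs shown (Eef1a1 to Eef1a2, Eif4a1 to Eif4a2, Eif4ebp1 to Eif4ebp2) every library labelled PKI lies above every WT library.

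The other elongation factors changed less. Eef1g, the gamma subunit of the complex that recharges eEF1A with GTP, rose from 52.2 ± 3.13 to 63.8 ± 3.89 FPKM (SD, n = 3; log2 change 0.28, limma adjusted p = 0.0212). Eef1e1, a small protein of the tRNA synthetase complex, rose from 1.89 to 2.58 FPKM (limma adjusted p = 0.0495), close to the threshold. The exchange subunits Eef1b2 (28.9 and 33.8 FPKM) and Eef1d (8.72 and 9.69 FPKM) were not called. After scaling, neither Eef1g nor Eef1e1 kept its call, and Eef1g turned to −0.01.

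Eef2, the translocation factor, was at 225, 220 and 226 FPKM in WT and at 251, 283 and 255 FPKM in PKI. It rose 1.18-fold without overlap (log2 change 0.23, limma adjusted p = 0.0221), but the direction turned after scaling (−0.07). Its call was lost without PKI 3, WT 2 or WT 3 (limma adjusted p from 0.0517 to 0.0613). Eef2k, the kinase that inhibits eEF2 by phosphorylation, was at 3.03 ± 0.170 and 2.83 ± 0.209 FPKM (SD, n = 3) and was not called (log2 change −0.07, limma adjusted p = 0.442). After scaling it was called lower (−0.30, limma adjusted p = 0.0321). None of the 3 tested methyltransferases that modify elongation factors (Eef1akmt1, Eef1akmt2, Eef2kmt) was called by limma, and none had an unadjusted p under 0.05 either. Their log2 changes were 0.06, 0.16 and 0.19.

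Of the 10 tested genes of eIF4F and its helicase partners, 2 rose, Eif4a1 and Eif4g3, and none fell. The shares of all tested genes were 36.4% higher and 2.96% lower. At an unadjusted p under 0.05 in limma, 3 of the 10 were higher and 1 lower. The median log2 change of these 10 was 0.13, beside 0.21 for all tested genes, and after scaling it was −0.16. After scaling 1 of the 10 was called higher, Eif4a1, and 1 lower, Eif4h, beside 7.82% and 9.18% of all tested genes. Eif4a1 (ENSMUSG00000059796, chr11:69666936-69672423), the helicase that unwinds the 5′ leader of mRNAs, was at 13.4, 12.8 and 12.6 FPKM in WT and at 22.2, 19.5 and 18.7 FPKM in PKI. It rose 1.56-fold without overlap (log2 change 0.60, SE 0.08, limma adjusted p = 0.00241; after scaling 0.32, limma adjusted p = 0.0301). Its paralog Eif4a2 was at 24.9, 15.9 and 21.6 FPKM in WT and at 19.0, 19.0 and 17.7 FPKM in PKI, with overlapping groups and no call (log2 change −0.13, limma adjusted p = 0.490). Without WT 2 alone it was called lower (−0.30, limma adjusted p = 0.0467). Their ratio, looked at after these values were seen and so given without a test, was 0.540, 0.803 and 0.584 in WT and 1.17, 1.03 and 1.05 in PKI.

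Eif4a1 has a near-identical copy elsewhere in the genome. The pseudogene Eif4a-ps4 matches the 1218 coding bases of Eif4a1 but for G534A, counted from 1 at the A of the start codon, with the base of Eif4a1 first. The 41 bases around that position are shown because they are the whole difference between the coding sequences, with the differing base in capitals.
Eif4a1: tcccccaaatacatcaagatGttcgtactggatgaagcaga
Eif4a-ps4: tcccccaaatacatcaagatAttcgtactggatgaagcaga
Eif4a-ps4 was listed at 15.6, 14.3 and 15.6 FPKM in WT and at 23.0, 22.6 and 25.02 FPKM in PKI, and copies held 53.9% of the FPKM of Eif4a1 and its copies. How the reads were divided between gene and pseudogene is unknown, so the level of Eif4a1 alone is uncertain. The sum of Eif4a1 and Eif4a-ps4 went from 28.1 ± 0.981 to 43.7 ± 1.55 FPKM (SD, n = 3), and with copies added the log2 change was 0.62 (limma adjusted p = 0.000922; after scaling 0.33, limma adjusted p = 0.0122).

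Of the eIF4G scaffold genes, Eif4g3 rose from 2.55 ± 0.0624 to 3.21 ± 0.0626 FPKM (SD, n = 3; limma adjusted p = 0.0210), whereas Eif4g1 (38.2 and 41.2 FPKM) and Eif4g2 (55.7 and 58.7 FPKM) were not called. After scaling Eif4g3 was not called (log2 change 0.03, limma adjusted p = 0.825). Eif4g2, which lacks the eIF4E-binding part of the scaffold, had the highest level of these 10 genes. The log2 changes of Eif4g1 and Eif4g2 were 0.10 and 0.08 and turned negative after scaling (−0.19 and −0.22). Eif4b, a stimulator of the helicase, was at 33.9 and 37.8 FPKM and was not called. Eif4a3, the related helicase of the exon junction complex, was at 9.54 and 11.8 FPKM (log2 change 0.27, limma adjusted p = 0.0570).

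Eif4e, the cap-binding protein, was at 5.87, 17.1 and 5.71 FPKM in WT and at 5.52, 19.1 and 5.31 FPKM in PKI. The library numbered 2 stood far above the other two in both groups, and the means of 9.57 and 9.98 FPKM describe no library. Without WT 2 the log2 change was 0.47, and without PKI 2 it was −0.56, neither of them called. Eif4h, which assists eIF4A, was at 11.4, 12.2 and 5.87 FPKM in WT and at 6.02, 5.78 and 5.69 FPKM in PKI, so that WT 3 fell among the PKI values. It was not called as deposited (log2 change −0.61, limma adjusted p = 0.0739), was called lower after scaling (−0.87, limma adjusted p = 0.0430), and was called lower without WT 3 (−0.91, limma adjusted p = 0.00390). Together with Eif5 and Eif3j2, described below, these were the 4 of 59 factors (6.78%) whose highest library was at least 1.8 times the lowest within a group, beside 9.85% of all tested genes. All 4 were named after their values were seen.

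**Figure D3:**
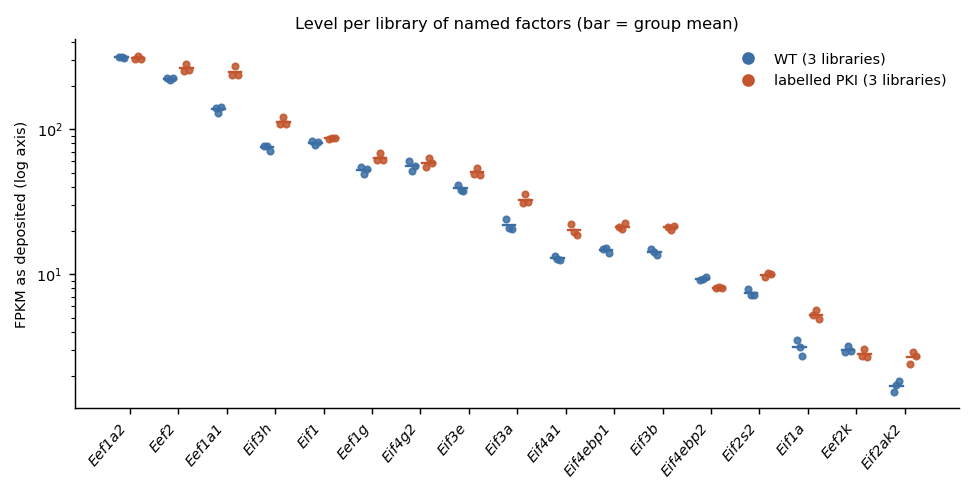
FPKM as deposited of named factors in each library on a log axis, ordered roughly by level, with WT in blue, libraries labelled PKI in orange and a short bar at each group mean. The groups are apart for Eef1a1, Eif3h, Eif4a1 and Eif1a, overlap for Eef1a2, Eif4g2 and Eef2k, and are reversed for Eif4ebp2.

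The 4E-binding proteins split. Eif4ebp1 (ENSMUSG00000031490, chr8:27260329-27276674), the inhibitor released from eIF4E by mTOR phosphorylation, was at 15.04, 15.3 and 14.0 FPKM in WT and at 21.1, 20.4 and 22.5 FPKM in PKI. It rose 1.45-fold without overlap (log2 change 0.50, SE 0.07, limma adjusted p = 0.00262), and after scaling the change was 0.22 and no longer called (limma adjusted p = 0.0735). Eif4ebp2 (ENSMUSG00000020091, chr10:61428491-61452661), a paralog with the same role, was at 9.13, 9.23 and 9.56 FPKM in WT and at 8.02, 8.14 and 8.02 FPKM in PKI. It was the only tested factor with every library labelled PKI below every WT library, a pattern found in 4.53% of all tested genes. Eif4ebp2 fell by 0.19 on the log2 scale (SE 0.06, limma adjusted p = 0.0413), and by more after scaling (−0.45, limma adjusted p = 0.00357). As deposited the call was lost without any one of the 6 libraries (limma adjusted p from 0.0615 to 0.1197). The ratio of Eif4ebp1 to Eif4ebp2, looked at after these values were seen and given without a test, was 1.65, 1.66 and 1.46 in WT and 2.63, 2.51 and 2.81 in PKI. Eif4enif1, which carries eIF4E into the nucleus, rose from 3.44 to 4.41 FPKM (limma adjusted p = 0.0456). After scaling Eif4enif1 was not called (log2 change 0.05, limma adjusted p = 0.768).

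Subunits of eIF3, the scaffold on the small ribosomal subunit, differed widely in level, from 2.03 FPKM for Eif3j2 to 93.9 FPKM for Eif3h in the mean of the 6 libraries. Of the 14 tested subunit genes 8 (57.1%) rose and none fell, beside 36.4% higher and 2.96% lower among all tested genes (10 of the 14 higher and none lower at an unadjusted p under 0.05 in limma), and the median log2 change was 0.30. After scaling 2 (14.3%) were called higher and none lower, beside 7.82% and 9.18% of all tested genes, with a median of 0.01. Eif3h (ENSMUSG00000022312, chr15:51786558-51865523) was at 77.2, 76.3 and 71.3 FPKM in WT and at 110, 121 and 108 FPKM in PKI. It rose 1.51-fold without overlap (log2 change 0.58, SE 0.07, limma adjusted p = 0.00138; after scaling 0.29, limma adjusted p = 0.0183). Eif3b, a core subunit, was at 15.02, 14.2 and 13.6 FPKM in WT and at 21.3, 20.2 and 21.7 FPKM in PKI. It rose 1.48-fold (log2 change 0.53, limma adjusted p = 0.00192; after scaling 0.25, limma adjusted p = 0.0401). Eif3a, the largest core subunit, rose 1.49-fold from 21.9 ± 1.97 to 32.7 ± 2.52 FPKM (SD, n = 3; limma adjusted p = 0.00436), and after scaling its change of 0.27 was not called (limma adjusted p = 0.0603).

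The remaining eIF3 genes that rose were Eif3c, Eif3d, Eif3e, Eif3j1 and Eif3l, by log2 changes of 0.29 to 0.41. None of these 5 was called after scaling. Eif3f, Eif3k and Eif3m, at 20.1, 11.2 and 18.0 FPKM in WT, had log2 changes of 0.08, 0.07 and 0.14 with overlapping groups. Eif3g and Eif3i (0.27 and 0.20) were not called although their groups did not overlap. The genes Eif3j1 and Eif3j2 have an identical run of 781 coding bases and cannot be separated by reads within it. Eif3j2 was at 0.940, 5.99 and 1.83 FPKM in WT and at 0.892, 1.18 and 1.37 FPKM in PKI, with WT 2 far above the rest. Summed, the pair was at 12.8 ± 2.03 and 13.7 ± 0.781 FPKM (SD, n = 3), and the call of Eif3j1 was lost in that sum (log2 change 0.10, limma adjusted p = 0.479).

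Of the 4 tested genes that deliver the initiator tRNA, 3 rose (Eif2s1, Eif2s2 and Eif2a), beside 36.4% of all tested genes. Eif2s1, the alpha subunit of eIF2 and the target of the stress kinases, was at 6.53, 5.86 and 5.99 FPKM in WT and at 8.27, 8.31 and 8.02 FPKM in PKI. It rose 1.34-fold without overlap (log2 change 0.37, limma adjusted p = 0.00662; after scaling 0.11, limma adjusted p = 0.289). Eif2s2, the beta subunit, also rose 1.34-fold (7.41 ± 0.413 to 9.94 ± 0.322 FPKM, SD, n = 3; limma adjusted p = 0.00640), and the copy Gm9892 held 42.8% of the FPKM of the gene and its copy. Eif2d, an alternative tRNA delivery factor, was at 2.04 and 2.39 FPKM and was not called. None of the 4 was called after scaling in either direction, nor did any have an unadjusted p under 0.05 there in limma.

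Of the 5 genes for eIF2B, the exchange factor that reloads eIF2 with GTP, 2 (40.0%) rose, beside 36.4% of all tested genes. None of the 5 was called after scaling. Eif2b3 went from 1.19 to 1.69 FPKM (limma adjusted p = 0.0259) and Eif2b4 from 7.31 to 8.78 FPKM (limma adjusted p = 0.0303), but the direction of Eif2b4 turned after scaling (−0.03). Eif2b5, the catalytic subunit and the highest of the 5, was at 8.83 and 10.4 FPKM (log2 change 0.22, limma adjusted p = 0.0535). Both tested kinases of eIF2 alpha rose, beside the same 36.4% of all tested genes. Eif2ak2 (PKR), the kinase activated by double-stranded RNA, was at 1.55, 1.73 and 1.83 FPKM in WT and at 2.40, 2.90 and 2.74 FPKM in PKI (1.57-fold, log2 change 0.44, limma adjusted p = 0.00763). Eif2ak1 (HRI), the heme-regulated kinase, went from 4.14 ± 0.322 to 5.30 ± 0.164 FPKM (SD, n = 3; limma adjusted p = 0.0191). After scaling neither kinase was called (log2 changes 0.24 and 0.05).

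Among the 7 genes of start codon choice and subunit joining, Eif1a, Eif1ad and Eif5b rose (42.9%, beside 36.4% of all tested genes). After scaling 1 was called higher, Eif1a, and 1 lower, Eif1, beside 7.82% and 9.18% of all tested genes. The median log2 change of the 7 was then −0.01, and neither Eif1ad nor Eif5b kept its call. Eif1a, a form of eIF1A, was at 3.54, 3.15 and 2.75 FPKM in WT and at 5.26, 5.66 and 4.92 FPKM in PKI. It rose 1.68-fold without overlap (log2 change 0.60, SE 0.09, limma adjusted p = 0.00403; after scaling 0.36, limma adjusted p = 0.0291). Its X-linked counterpart Eif1ax was at 7.95 and 9.26 FPKM with overlapping groups (log2 change 0.20, limma adjusted p = 0.0866). Eif5b, the GTPase that joins the ribosomal subunits, rose from 8.53 to 10.8 FPKM (limma adjusted p = 0.0407).

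Eif1, the gatekeeper of the start codon and the highest of these 7, was at 82.7, 77.7 and 81.6 FPKM in WT and at 85.6, 86.8 and 86.9 FPKM in PKI. It was not called as deposited (log2 change 0.10, limma adjusted p = 0.163), and after scaling it was called lower (−0.20, limma adjusted p = 0.0443). Eif1 has 12 near-identical stretches at other genes, which together held 30.5% of the summed FPKM. They include one at Emd, the emerin gene, whose whole level enters that sum. With them added Eif1 was called higher (0.21, limma adjusted p = 0.0247) and after scaling was not called (−0.09), so its direction depends on scaling and its call on the copies. Eif5, the GTPase activator of eIF2, was at 6.31, 9.54 and 5.97 FPKM in WT and at 7.73, 15.9 and 9.10 FPKM in PKI, with the highest value of each group in the library numbered 2. It was not called (log2 change 0.49, limma adjusted p = 0.170).

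Eif6, which keeps the large ribosomal subunit from joining too early, rose from 2.72 ± 0.386 to 3.83 ± 0.232 FPKM (SD, n = 3; log2 change 0.38, limma adjusted p = 0.0200). After scaling Eif6 was not called (log2 change 0.15, limma adjusted p = 0.351). Eif5a, the hypusine-bearing factor that helps ribosomes past difficult peptide bonds, was at 54.9 and 59.8 FPKM with overlapping groups and was not called (limma adjusted p = 0.376). The factors under the minimum reached at most 1.19 FPKM (Eif2ak3), 0.780 FPKM (Eif2ak4), 0.619 FPKM (Eif5a2), 0.460 FPKM (Eif4ebp3) and 0.0737 FPKM (Eef1akmt3) in any library. Eif4e1b, the oocyte form of the cap-binding protein, and Eif2c5 were listed at 0 in all 6. Eif2ak3 encodes PERK, the kinase of the endoplasmic reticulum, and Eif2ak4 encodes GCN2, the sensor of uncharged tRNA.

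In all, 34 of the 59 factors had every library labelled PKI above every WT library, beside 51.3% of all tested genes. Leaving out each library in turn changed how many rose: the count was 14 without PKI 3 or without WT 3, 15 without WT 2 and 17 without PKI 1. Called higher in the fit of all libraries and in each of the 6 fits without 1 library were 11: Eef1a1, Eif1a, Eif2ak2, Eif2s1, Eif2s2, Eif3a, Eif3b, Eif3e, Eif3h, Eif4a1 and Eif4ebp1. How many of all tested genes kept a call in this way was not counted. The single fits gave 2179 to 3162 genes higher, against 3609 with all libraries. Of the 11, only Eef1a1, Eif1a, Eif3b, Eif3h and Eif4a1 were also called higher after scaling. Near-identical stretches at other genes (at least 100 bases at 95% identity or more) were found for 23 of the 66, and in 7 tested factors such copies held over 10% of the summed FPKM. With copies added to their factor, 27 factors were again called higher, 26 of them the same, and Eif1 took the place of Eif3j1.

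**Figure D4:**
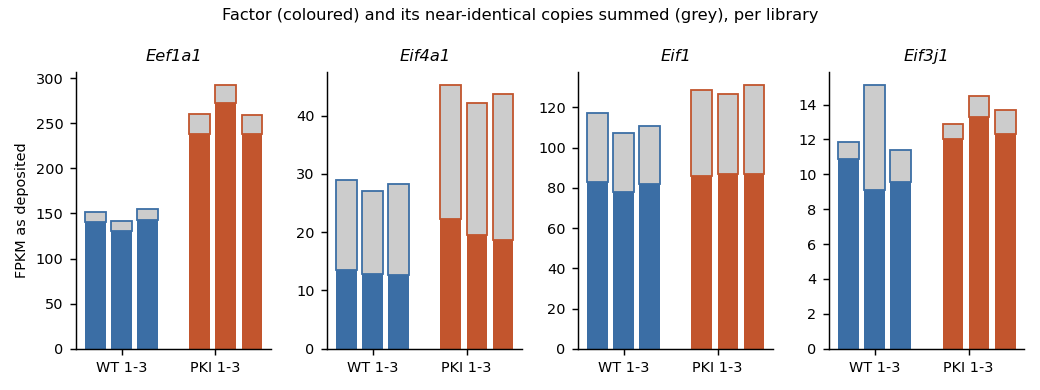
FPKM as deposited of 4 factors (coloured) with the summed FPKM of their near-identical copies stacked on top (grey), in each of the 3 WT (blue) and 3 PKI (orange) libraries, on axes that start at 0. The copies are a small part for Eef1a1 (7.70%) and the larger part for Eif4a1 (53.9%), and for Eif3j1 the tall WT bar is WT 2, where Eif3j2 was at 5.99 FPKM.

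Promoter sequences from RefSeq (GRCm38.p6, 250 bases before to 50 after each start) were matched by symbol for 50 of the 66 factors. The hexamer CACGTG, the E-box, which reads the same on both strands, occurred in a window of 12 of the 50 (24.0%), beside 8.09% of 27025 genes. Those 27025 were not limited to the tested genes. A gene with several starts counted if any of its windows held the letters, and the number of starts per gene was not compared. The 12 were Eef2, Eef2k, Eif1b, Eif3a, Eif3f, Eif3k, Eif4a1, Eif4e, Eif4g1, Eif4h, Eif5a and Eif5a2. As deposited, Eef2, Eif3a and Eif4a1 of these rose, beside 36.4% of all tested genes. Eif5a2 was not tested and the others were not called. After scaling Eif4a1 was called higher and Eef2k and Eif4h lower, beside 7.82% and 9.18% of all tested genes. The change of Eef2 was then −0.07, and Eif3a was not called. The letters were thus found in factors that rose and in factors that were not called. The window is shown for Eif4a1 and Eef2, which rose as deposited, and for Eif4g1, which was not called. These windows, with the hexamer in capitals, are at chr11:69672587-69672632 on the minus strand, and at chr10:81176568-81176613 and chr16:20672653-20672698 on the plus strand.
Eif4a1: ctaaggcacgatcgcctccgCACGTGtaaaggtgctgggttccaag
Eef2: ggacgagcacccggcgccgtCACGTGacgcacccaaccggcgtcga
Eif4g1: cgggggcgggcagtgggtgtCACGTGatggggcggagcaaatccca
The hexamer begins 189, 43 and 54 bases before the respective start. The Eif4g1 window lies inside the span of its gene in GENCODE M21 (chr16:20668313-20692884), so its start is an internal one. The windows of Eif4a1 and Eef2 lie upstream of their genes. The cyclic AMP response element TGACGTCA, also the same on both strands, occurred in 1 of the 50 (Eef2, 2.0%, beside 2.03% of all genes). TGATGCAA, a C/EBP-ATF element searched on both strands, occurred in none of the 50, beside 1.03% of all genes. A match is a run of letters and was not examined for binding.

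Other genes that control cytosolic translation (poly(A)-binding proteins, the mTOR pathway, the stress response through eIF2, ribosome recycling) came from a list of 63. Under their symbols 4 had no row in the table, the others gave 60 rows, and 54 of these were tested: 23 (42.6%) rose and none fell, beside 36.4% and 2.96% of all tested genes (29 higher and none lower at an unadjusted p under 0.05 in limma), and their median log2 change was 0.24. The scaled values gave 2 (3.7%) called higher, Pabpc1 and Atf4, and 2 called lower, Sesn1 and Hbs1l, beside 7.82% and 9.18% of all tested genes. Pabpc1, the poly(A)-binding protein that joins the mRNA tail to eIF4G, was at 8.63, 7.70 and 7.55 FPKM in WT and at 13.3, 13.5 and 12.8 FPKM in PKI (log2 change 0.66, limma adjusted p = 0.00118; after scaling 0.39, limma adjusted p = 0.00818). Atf4, the transcription factor whose translation increases when eIF2 alpha is phosphorylated, was at 21.1, 20.4 and 18.9 FPKM in WT and at 34.4, 30.9 and 38.7 FPKM in PKI (log2 change 0.75, limma adjusted p = 0.00196; after scaling 0.46, limma adjusted p = 0.0187). Both were higher in every library labelled PKI. Sesn1, an inhibitor of mTOR signalling, was at 20.4 and 20.8 FPKM (log2 change 0.02; after scaling −0.26, limma adjusted p = 0.0240), and Hbs1l, a ribosome rescue factor, at 4.85 and 4.77 FPKM (−0.02; after scaling −0.27, limma adjusted p = 0.0455). Both were named after their values were seen, and their groups overlapped.

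Impact, an inhibitor of GCN2, and Sbds, which helps release Eif6 from the large subunit, also rose (log2 changes 0.45 and 0.46), but neither was called after scaling. The 11 factors of mitochondrial translation, all tested, gave 1 that rose (9.09%), Gfm1, and none that fell. Among all tested genes the shares were 36.4% and 2.96%. At an unadjusted p under 0.05 in limma 1 of the 11 was higher and none lower, and their median log2 change was 0.12. Gfm1, the mitochondrial elongation factor G, went from 29.7 to 34.7 FPKM in mean (log2 change 0.22, limma adjusted p = 0.0225), and after scaling its change was −0.07. Tufm, the mitochondrial counterpart of eEF1A, was at 41.2, 46.2 and 46.8 FPKM in WT and at 44.4, 41.2 and 36.0 FPKM in PKI. It was not called as deposited (−0.14, limma adjusted p = 0.244) and was called lower after scaling (−0.43, limma adjusted p = 0.0210). Whether the cytosolic and mitochondrial lists differ from each other was not tested.

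Markers of several other cell types also differed between the groups. Among all tested genes 36.4% were called higher and 2.96% lower as deposited. Fibroblast markers rose in 10 of 12 genes and summed to 280 to 420 FPKM in WT and 580 to 661 FPKM in PKI. Macrophage markers rose in 11 of 12 and summed to 75.5 to 115 FPKM in WT and 228 to 249 FPKM in PKI, and no marker of either list was at 0. Smooth muscle and pericyte markers rose in 4 of 9 tested (44.4%, summed 152 to 180 and 211 to 254 FPKM). Both tested Schwann cell and neuron markers rose (2.43 to 4.63 and 7.74 to 10.99 FPKM). Lymphocyte and neutrophil markers, of which 1 of 10 was tested and not called and Ly6g was at 0, summed to 0.878 to 4.57 and 1.69 to 2.84 FPKM. Atrial markers rose in 1 of 5 tested, with sums of 271 to 480 and 667 to 1498 FPKM, and a median log2 change of −1.49. Endothelial markers rose in 4 of 12 (33.3%, 350 to 400 and 375 to 387 FPKM), and the 5 tested red blood cell markers all fell (380 to 538 and 274 to 338 FPKM). After scaling 10 fibroblast and 9 macrophage markers were called higher and none lower. Smooth muscle and pericyte markers then gave 1 higher and 2 lower, and endothelial markers none higher and 2 lower. Of the other lists, 1 Schwann cell or neuron marker and 1 atrial marker were called higher, and 5 red blood cell markers lower. The shares of all tested genes after scaling were 7.82% higher and 9.18% lower. Eef1a1, Eif2ak2, Eif4ebp1 and Eif4a1 are expressed in many cell types, and the part of these markers' cells in the factors' values was not tested. In bulk tissue, more cells of a type and more RNA per cell cannot be told apart.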

How the data were processed

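The deposited values are FPKM per gene and library, as the authors' table is named. The submitters' processing notes name CASAVA, Bowtie 0.12.2 and mm9, with no role given. Neither the program nor the annotation behind the FPKM is given in the sources used here. Per the labels' protocols, Trizol RNA and the TruSeq RNA kit were used. That kit does not mark strand, so antisense transcripts are not separated. FPKM hold no counts, so sequencing depth is unknown. Both deposited gene tables held identical values.

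Members and gene lists were chosen with earlier results of these data known. Groups came from sample titles. Of 24705 genes above 0, the 9907 averaging 1 FPKM or more entered a limma fit (version 3.58.1, R 4.3.3) of log2(FPKM + 1), two-sided, with a trend and no block. P-values were Benjamini-Hochberg adjusted over all of them, with calls at adjusted p under 0.05. Log2 changes understate low genes. Folds are ratios of mean FPKM. Named by rule were Eef1a1 and Eef1a2, factors called before and after scaling, called lower, or highest or with the smallest p in a role group, and the 4 smallest p of each other list. Eef2k, Eif4e, Eif4h, Eif5, Eif3j1, Eif3j2, Eif4a2, Eif2s1, Eif3a, Eif3e, Eif4g1, Eef1g, Eif3c, Eif3i and other factors outside the rule were named after their values were seen. Copies were found with blastn 2.17.0. Positions are those of GENCODE M21 (GRCm38) for the same identifier, not converted from mm9.

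Over all tested genes, same-numbered libraries did not deviate together (correlations −0.104, 0.00115 and 0.0529). These values gave no sign of pairing but cannot exclude it. Eif4e and Eif5 were each highest in the same-numbered library of both groups. On simulated data with 9907 genes the fit called 46 of 69 genes set to a 1.5-fold change, 59 of 65 set to a 2-fold and 65 of 66 set to a 4-fold one, with 8 false among 178 calls. No shift common to all genes was simulated. The alternatives were scaling, quantile normalisation, pseudocount 0.1, no filter, a minimum of 5 FPKM, no trend, a replicate block, and fits without 1 library each. Adding copies was chosen after seeing the data.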

Additional observations from a re-analysis of the deposited data

How the results depend on the processing

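Scaling changed most counts. After median-of-ratios scaling 5 factors were called higher and 5 lower (quantile normalisation 6 and 2, copies added with scaling 5 and 4). Over all tested genes the counts were 775 and 909 (quantile 753 and 762), against 3609 and 293 as deposited. The translation control list had 2 higher and 2 lower (quantile 2 higher), and the mitochondrial factors 0 higher and 1 lower (quantile the same). The cause was not tested. With a minimum mean of 5 FPKM, 1739 genes were called higher and 186 lower, as fewer genes were tested. The factors' median turned to −0.0257 with scaling and −0.0120 with quantile normalisation.

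Of the 59 tested factors 27 changed direction with scaling and 24 of these also with quantile normalisation. Among the genes tracked under every alternative, directions turned, with scaling and then quantile values, for Eef1akmt1 (−0.22, −0.21), Eef2kmt (−0.0249, −0.0472), Eif1 (−0.20, −0.0770), Eif2b5 (−0.0495, −0.0285), Eif3i (−0.0718, −0.0559), Eif4g1 (−0.19, −0.12), Eif4g2 (−0.22, −0.12), Eif5a (−0.17, −0.0898), Gfm1 (−0.0720, −0.0272) and Gfm2 (−0.11, −0.098). Eef1g (−0.0108) and Eef2 (−0.0663) turned with scaling but not with quantile normalisation, and Mtfmt (−0.00636) with quantile normalisation only. With copies added Eif3j2 turned to 0.10 and Eif4e to 0.0415, and with copies and scaling Eef1g (−0.0132), Eef2 (−0.0669), Eif1 (−0.0910), Eif3j1 (−0.18) and Eif5a (−0.17) turned.

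Without 1 library the counts ranged from 14 to 26 factors higher and from 0 to 1 lower, from 2179 to 3162 genes higher and from 165 to 263 lower, from 14 to 24 higher and from 0 to 1 lower in the translation control list, and from 0 to 1 higher in the mitochondrial factors. The lowest counts of all genes were without WT 3. Eif4e then lay between −0.56 and 0.47, Eef1akmt1 reached −0.0196 without PKI 3, and Eif4a2 lay between −0.30 (without WT 2, called lower) and 0.00385 (without WT 1). The factor called lower was then Eif4a2 (without WT 2) or Eif4h (without WT 3), not Eif4ebp2. The Eef1a1 to Eef1a2 log2 ratio lay between 0.83 and 0.91 (exact permutation p = 0.2, the smallest possible).

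With the replicate block 15 factors were called higher, 14 of them also called without it, and 0 lower. The other one was Eif5, called higher with the block (0.49, limma adjusted p = 0.0285). Whether the numbers pair the samples is not known. The block left 0 mitochondrial factors higher, and the Eef1a1 to Eef1a2 log2 ratio was 0.87 (exact paired permutation p = 0.25, the smallest possible). Without the filter on low values Eef1akmt3 was called (log2 0.07), with WT listed at 0.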
